A study of Mus musculus with 15 samples.

Results

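Heart muscle cells taken 1 day after a low dose of iron ions were set against cells from sham mice, on 3 iron day 1 arrays and 3 sham arrays of the 15 arrays of the study. The arrays were taken by their labels: every array labelled as iron day 1, and every sham array, of which 2 were from day 1 and 1 was from day 3. The irradiated mice had received 0.15 Gy of iron ions (56Fe) over the whole body, at 1 GeV per nucleon and 0.05 Gy per minute, with an LET (energy left per length of track) of about 151 keV/µm, and the sham mice had received no ions. Both groups were adult male C57Bl/6NT mice of 8 to 9 months, and no allele or drug distinguished them. Left ventricular cardiomyocytes were freed with collagenase from hearts perfused through the aorta and selected by a calcium gradient, and per the labels more than 90% of the cells tolerated calcium, with room for a few inflammatory or endothelial cells. Total RNA from these preparations was hybridised to 1-colour gene arrays, and values are log2 signals as deposited. The labels do not say whether each array stands for its own mouse. The p-values therefore describe how far these arrays scatter, and that scatter could be technical.

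Most of a heart's volume is cardiomyocytes, but fibroblasts, endothelial cells and resident macrophages are numerous in the tissue around them. Resident macrophages and dendritic cells carry class II histocompatibility proteins, which hold peptides from engulfed material on the cell surface for helper T cells. The class II genes are transcribed together, through an enhanceosome that binds short boxes in their promoters and that the coactivator Ciita switches on. Iron ions are heavy charged particles of galactic cosmic rays that leave dense tracks of damage along their path.

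The preparations carried strong cardiomyocyte signals in every array. Myh6, the adult heart myosin heavy chain, stood at 12.26, 12.24 and 12.27 log2 in the iron day 1 arrays, against 12.22, 12.27 and 12.25 in the sham arrays. The highest value of any probe set over all 15 arrays of the study was 13.008. Tnnt2, a subunit of the troponin complex, stood at 12.43, 12.43 and 12.52 in iron day 1, against 12.42, 12.43 and 12.44 in sham. The 16 ventricular cardiomyocyte markers had a median difference of 0.021 (all 9969 genes tested, 0.028), and their summed linear signal was 65020 to 66930 in iron day 1 arrays, against 64530 to 65710 in sham arrays.

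Several arrays stood apart from others of their group. Replicate 1 of iron day 1 correlated with the sham day 1 arrays at r = 0.9872 and 0.9891 over the genes tested, against 0.9763 and 0.9676 with replicates 2 and 3 of its own group, which correlated with each other at 0.9836. The sham day 3 array was high in genes that cardiomyocytes do not make. Cd8b1, a T cell coreceptor chain, read 4.26, 4.26 and 4.34 in iron day 1, against 4.10 and 4.63 in the sham day 1 arrays and 8.65 in the sham day 3 array. Sftpc, a surfactant protein of lung alveoli, read 3.40, 3.35 and 3.14 in iron day 1, against 3.08 and 3.08 in sham day 1 and 7.38 in sham day 3. The sham day 3 array was higher than the sham day 1 arrays in 32 genes (0.321%) and lower in 6 (0.0602%) at a limma adjusted p under 0.05. Replicate 1 of sham day 1 was high in atrial genes. Myl7, the atrial regulatory light chain, read 6.17, 5.66 and 5.50 in iron day 1, against 10.31, 7.57 and 6.39 in sham, which was the lowest difference of all genes tested (-2.31, SE 0.949) and did not pass (adjusted p = 0.386). Results are therefore also given without replicate 1 of iron day 1, and against the 2 sham day 1 arrays alone, which leaves the sham day 3 array out. Replicate 1 was picked for its likeness to sham, so differences and counts without it tend to be larger by that choice. They describe the other arrays and are no further evidence of an effect.

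Of 9969 genes tested with limma, 6 passed a Benjamini-Hochberg adjusted p under 0.05, which is 0.0602% of the genes, and all 6 were lower in iron day 1. Of these, 4 belong to class II presentation: H2-Aa, H2-Ab1, H2-Eb1 and the class II chaperone Cd74. The other two were the fetal growth factor gene Igf2 and the noncoding transcript F630028O10Rik, which hosts a myeloid microRNA. No gene passed on the higher side (0%), where 367 genes (3.68%) had an unadjusted p under 0.05 in limma, against 733 genes (7.35%) on the lower side. The 6 calls rested on the full set of arrays: limma gave 0 once replicate 2 or 3 of iron day 1 was left out, and likewise the sham array of day 3 or the first of day 1, with 372 to 586 lower genes at an unadjusted p under 0.05. It was also 0 when replicate 1 or 2 of iron day 3 or either array of days 14 and 28, which enter only the estimate of spread, was dropped, and 1 when replicate 3 of iron day 3 was. Dropping replicate 1 of iron day 1 gave 348.

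The promoters of H2-Aa and H2-Eb1, from RefSeq (GRCm38.p6), are shown because these family members fell together. H2-Ab1 had no entry among the promoters used, and the promoter of Cd74 was left out, so neither was searched. Each promoter shown is 300 bases long and spans the transcription start near its end. Both strands were searched for CCAAT, the core of the Y box, which binds NF-Y, and for an 11-letter form of the X box, which binds RFX. No match of one motif overlapped a match of the other. Capitals mark matches, with CCAAT written ATTGG where it lies on the opposite strand.
H2-Aa, chr17:34287774-34288073, minus strand: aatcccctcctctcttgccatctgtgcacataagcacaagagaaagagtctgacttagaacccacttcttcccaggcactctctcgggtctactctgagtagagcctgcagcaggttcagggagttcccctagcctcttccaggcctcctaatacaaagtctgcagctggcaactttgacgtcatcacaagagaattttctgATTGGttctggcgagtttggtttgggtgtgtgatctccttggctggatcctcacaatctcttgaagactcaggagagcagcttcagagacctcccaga
H2-Eb1, chr17:34305617-34305916, plus strand: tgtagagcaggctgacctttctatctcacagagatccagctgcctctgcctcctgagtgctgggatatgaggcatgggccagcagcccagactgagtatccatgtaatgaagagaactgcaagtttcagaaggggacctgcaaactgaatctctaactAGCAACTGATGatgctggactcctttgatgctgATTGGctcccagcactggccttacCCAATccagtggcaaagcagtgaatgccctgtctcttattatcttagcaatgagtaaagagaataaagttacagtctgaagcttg
The H2-Aa promoter held 1 CCAAT on the opposite strand, at -48 to -44 from the start, and no match to the X box form. The H2-Eb1 promoter held the X box form at -92 to -82, followed by CCAAT on the opposite strand at -59 to -55 and on the gene's own strand at -35 to -31. Of 32851 promoters of the same length in the table, 37.4% held CCAAT, 3.09% held the X box form and 1.42% held both. These matches describe the letters in the window only.

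H2-Aa, which encodes the alpha chain of the class II protein I-A, read 6.79, 6.41 and 6.51 log2 in the iron day 1 arrays, against 8.28, 7.74 and 8.53 in the sham arrays (2 of day 1, then day 3, as in all lists of 3 sham values here). Every iron array lay more than 0.9 log2 units below the lowest sham array, and replicate 1 was low with the others. H2-Aa fell by 1.61 (SE 0.224, limma adjusted p = 0.0447), or 3.06-fold lower in iron day 1.

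H2-Ab1, the gene of the partner beta chain, which neighbours H2-Aa on chromosome 17, read 7.01, 6.61 and 6.77 in iron day 1, against 8.40, 7.73 and 8.61 in sham. H2-Eb1, which encodes the beta chain of the second class II protein, I-E, read 6.96, 6.65 and 6.75 in iron day 1, against 8.28, 7.65 and 8.44 in sham. Both genes kept the groups apart, and in both the lowest sham array was replicate 2 of day 1. H2-Ab1 fell by 1.45 (SE 0.23) and H2-Eb1 by 1.33 (SE 0.211), each with a limma adjusted p of 0.0447.

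Cd74 encodes the invariant chain, which fills the peptide groove of new class II proteins and escorts them to endosomes. It read 7.46, 7.09 and 7.23 in iron day 1, against 8.89, 8.38 and 9.33 in sham, so that the highest iron array was 0.9 log2 units below the lowest sham array. Cd74 fell by 1.61 (SE 0.244, limma adjusted p = 0.0447), 3.05-fold lower in iron day 1. The order of the sham arrays was the same for all 4 class II genes, with day 3 highest and replicate 2 of day 1 lowest.

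Igf2, an imprinted gene that encodes insulin-like growth factor 2, read 6.72, 6.31 and 6.17 in iron day 1, against 7.78, 7.49 and 7.56 in sham. Its mean was 6.40 ± 0.29 in iron day 1 and 7.61 ± 0.15 in sham (SD, n = 3 each), and every iron array was below every sham array. Igf2 fell by 1.22 (SE 0.195, limma adjusted p = 0.0447), 2.32-fold lower in iron day 1.

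**Figure D1:**
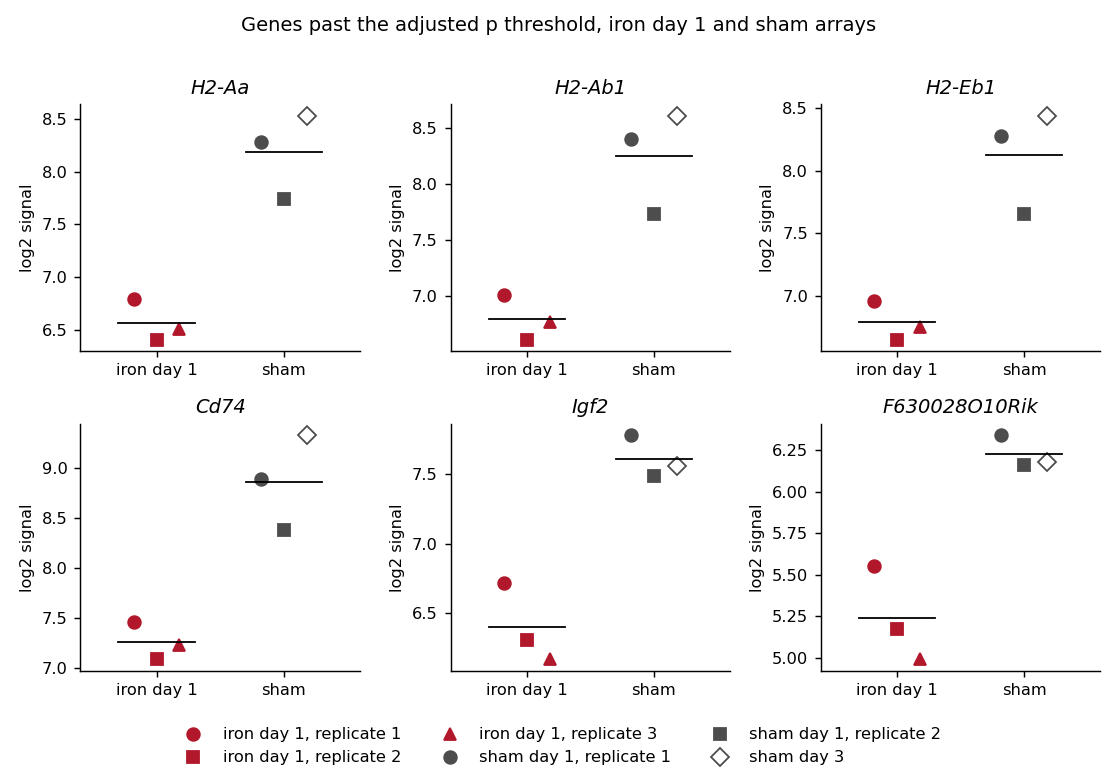
Log2 signal of the 6 genes past the adjusted p threshold in the 3 iron day 1 arrays (left of each panel, red) and the 3 sham arrays (right, grey), 1 point per array, with lines at group means. In all 6 panels the highest iron day 1 array, which is replicate 1, lies below the lowest sham array.

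F630028O10Rik, a long noncoding RNA gene on the X chromosome, read 5.55, 5.17 and 4.99 in iron day 1, against 6.34, 6.16 and 6.18 in sham. The groups did not overlap, and replicate 1 was the highest iron array. The transcript fell by 0.99 (SE 0.146, limma adjusted p = 0.0447), 1.98-fold lower in iron day 1. Its iron day 1 mean of 5.24 lay below the filter of 5.5125 and near the array medians of 4.959 to 5.134. The transcript met the filter through groups with higher values, such as sham with a mean of 6.23. Values this low leave the size of the fall uncertain. RefSeq places the Mir223 hairpin inside this gene, and miR-223 is known as a microRNA of granulocytes and macrophages. Its mature arms are shown because the transcript that passed is their host, with the seed (bases 2 to 8) in capitals.
mmu-miR-223-3p, chrX:96242884-96242905, plus strand: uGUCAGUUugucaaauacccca
mmu-miR-223-5p, chrX:96242842-96242864, plus strand: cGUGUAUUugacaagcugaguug
The 2 arms have different seeds, GUCAGUU and GUGUAUU. The value belongs to the host transcript, and no probe set named for Mir223 alone was used, so the level of the mature microRNA was not analysed here.

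The rest of the class II pathway gave no further gene that passed. Of 16 list members on the array, 13 were tested, 4 passed, and 7 were lower at an unadjusted p under 0.05 (background 7.35%). In 8 of the 13 all iron day 1 arrays lay below all sham arrays (background 5.8% of genes tested), and the median difference was -0.49, against 0.03 over all genes. These counts and this median include the 4 genes that passed, which were low in the iron arrays by selection. Ctss, the protease that trims the invariant chain, read 6.18, 5.76 and 5.27 in iron day 1, against 6.63, 6.38 and 6.84 in sham (-0.88, SE 0.253, adjusted p = 0.284). Ifi30, a reductase that unfolds antigens in endosomes, stood at -0.95 (SE 0.284, adjusted p = 0.284) and H2-DMa, a chain of the peptide exchange factor, at -0.49 (SE 0.164, adjusted p = 0.304). These 3 genes kept the groups apart but did not pass.

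The regulators of the class II promoters gave no gene that passed. Ciita, the coactivator, read 5.98, 5.50 and 5.88 in iron day 1, against 5.78, 5.95 and 5.86 in sham, and the groups overlapped (-0.07, SE 0.158, adjusted p = 0.879). These values lay near the filter of 5.5125, so they do not show that Ciita was unchanged. Rfxank and Rfxap, subunits of the RFX complex that binds the X box, stood at 0.03 (SE 0.12) and 0.16 (SE 0.104). H2-Oa and H2-Ob, which encode a partner that restrains peptide exchange, stood at -0.00 (SE 0.169) and -0.38 (SE 0.296). H2-Ob was the eighth member without overlap, at 5.36, 5.19 and 5.25 in iron day 1, against 5.46, 5.56 and 5.92 in sham, and its adjusted p was 0.64. Lgmn, an endosomal protease, stood at -0.16 (SE 0.113). Rfx5, H2-Eb2 and H2-Ea were below the filter on mean signal. H2-Ea, which C57Bl/6 mice are known not to express, read 4.35, 3.94 and 4.17 in iron day 1, against 4.14, 4.35 and 4.18 in sham.

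Class I presentation, which displays peptides from inside the cell, gave no gene that passed. Of 14 tested members 0 passed, 2 were lower (7.35% of all genes) and 0 higher at an unadjusted p under 0.05, and the median was -0.14. B2m, the light chain of class I proteins, read 11.21, 10.94 and 10.57 in iron day 1, against 11.34, 11.27 and 11.43 in sham (-0.44, SE 0.145, adjusted p = 0.304). H2-Q4, a nonclassical class I gene, stood at -0.71 (SE 0.277, adjusted p = 0.364), with replicate 1 at 7.31 inside the sham range of 7.17 to 7.61.

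**Figure D2:**
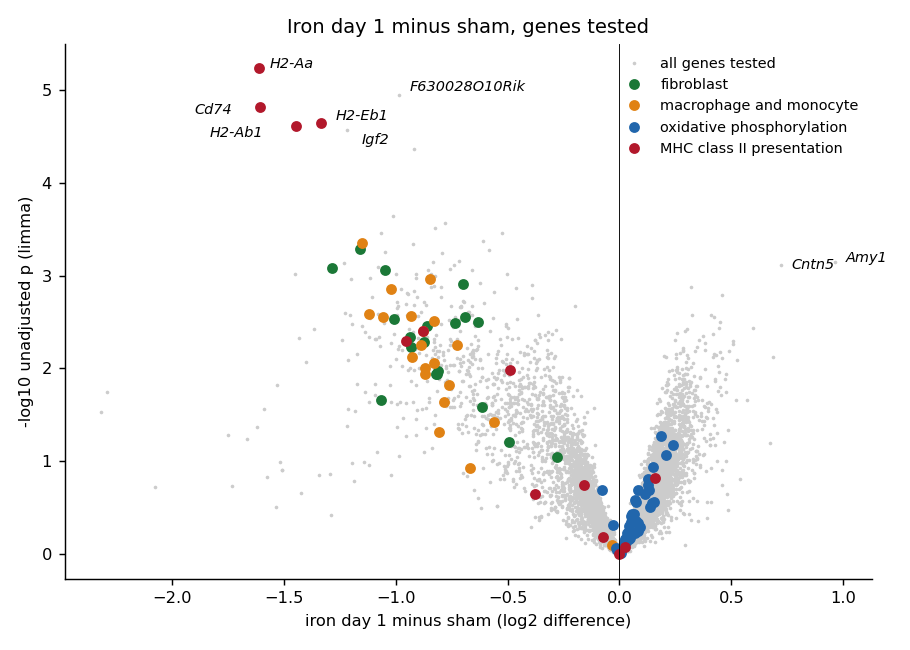
Log2 difference (iron day 1 minus sham) of each gene tested, against -log10 of its unadjusted limma p, with 4 lists in colour. The 4 class II genes, Igf2 and F630028O10Rik lie highest, macrophage and fibroblast markers lie left of 0, and oxidative phosphorylation genes lie close to 0.

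The genes with the next smallest p on the lower side belong to no list used here. Slco2a1, a prostaglandin transporter, read 6.43, 6.10 and 5.80 in iron day 1, against 7.19, 6.74 and 7.15 in sham (-0.92, SE 0.154, adjusted p = 0.0619). Tgfbi, a matrix protein induced by TGF-beta, stood at -0.78 (SE 0.16), Pkhd1l1, a large membrane receptor, at -1.01 (SE 0.203) and Abca9, a lipid transporter, at -0.82 (SE 0.171), each with an adjusted p of 0.255. All 4 kept the groups apart. In size, 81 genes (0.813%) were lower by more than 1 log2 unit and 0 genes (0%) were higher by as much. Of the 81, 37 belong to a list used here and 50 kept the groups apart.

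Markers of macrophages and monocytes, which carry class II proteins, lay below sham in most cases. Of 20 tested, 0 passed the adjusted threshold, 18 were lower at an unadjusted p under 0.05 (7.35% of all genes were), and 11 kept the groups apart (5.8% of all genes), with a median of -0.86. Fcer1g, a signalling chain of Fc receptors, read 8.85, 8.12 and 7.85 in iron day 1, against 9.28, 8.97 and 9.10 in sham (-0.85, SE 0.204, adjusted p = 0.255). Ly86, a partner of the endotoxin sensor family, read 6.45, 6.09 and 5.70, against 7.40, 6.90 and 7.39 in sham (-1.15, SE 0.249, adjusted p = 0.255). Tyrobp, an adaptor of myeloid receptors, stood at -1.02 (SE 0.254) and C1qb, a chain of complement C1q that macrophages secrete, at -0.89. In each of these genes replicate 1 lay nearest to sham. In bulk RNA of this kind, fewer cells of a type and less RNA per cell cannot be told apart.

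Offsets from the sham mean show how each array stood. Over the 13 class II genes tested the mean offset was -0.50 in replicate 1, -0.78 in replicate 2 and -0.74 in replicate 3, with single sham arrays between -0.21 and 0.16. Over the 4 that passed it was -1.30, -1.66 and -1.54, but a gene had to be low in the iron arrays to pass, so these values were fixed by the choice. Averaged over the macrophage markers it was -0.24, -0.95 and -1.30, with single sham arrays between -0.26 and 0.18. Replicate 1 was below every sham array in 8 of the 13 class II genes (61.5%) and in 12 of the 20 macrophage markers (60%), against 18.3% of all genes tested. Replicate 2 was below in 10 and 19 of them (all genes, 31%), and replicate 3 in 9 and 20 (all genes, 25.5%). The 13 class II genes include the 4 chosen for passing, which raises the class II counts and lowers the class II offsets. Ctss belongs to both the class II and the macrophage list. The summed linear signal of the 27 macrophage markers on the array was 4850, 2872 and 2243 in iron day 1, against 6063, 4807 and 6828 in sham, and none of these markers was at 0. The part of macrophage RNA in the class II result was not tested.

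**Figure D3:**
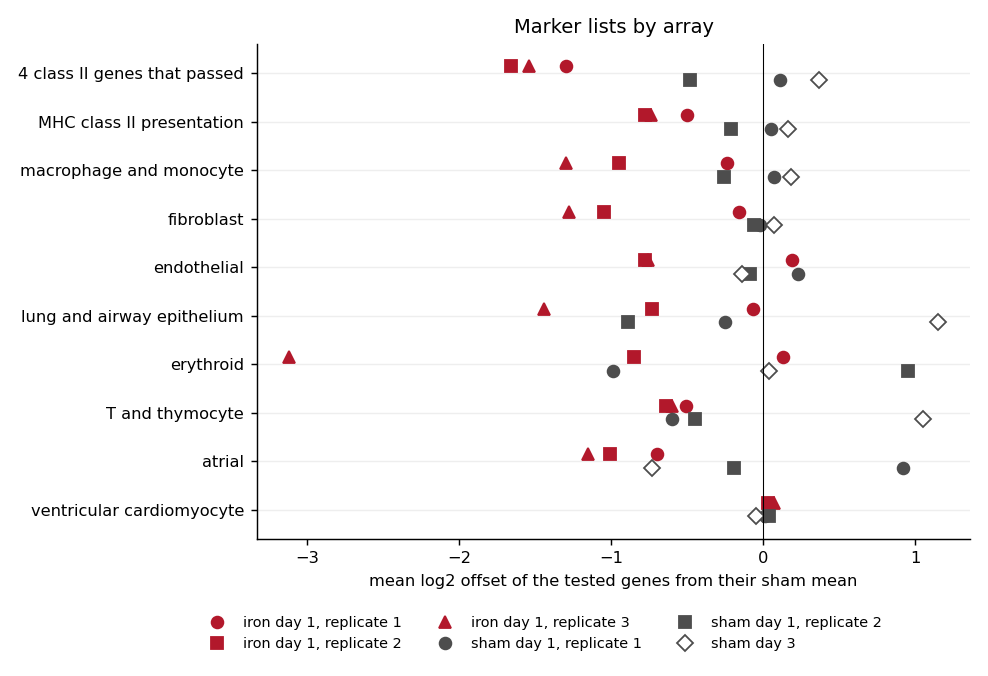
Mean log2 offset of the tested genes of 10 gene sets from their sham mean, for each iron day 1 array (red, upper row of each list) and each sham array (grey, lower row). The whole class II list puts the iron arrays between -0.78 and -0.50, the 4 genes chosen for passing put them between -1.66 and -1.30, and in macrophage, fibroblast and endothelial markers replicate 1 is the highest iron array.

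Other antigen-presenting cells could not be followed as closely. Of 12 dendritic cell markers on the array 4 were tested, with differences from -0.30 to -0.16 and none passing, and Itgax, Flt3, Zbtb46 and Xcr1 were below the filter. Their summed signal was 325 to 386 in iron day 1, against 388 to 397 in sham. Of 12 B cell markers 3 were tested, and Cd79b, a chain of the B cell receptor, read 5.47, 5.45 and 5.27 in iron day 1, against 5.81, 6.25 and 7.77 in sham, with its highest value in the sham day 3 array. Against the sham day 1 arrays alone the 4 class II genes stood at -1.44 for H2-Aa, -1.38 for Cd74, -1.27 for H2-Ab1 and -1.18 for H2-Eb1, with adjusted p from 0.251 to 0.256.

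Fibroblast markers were lower than sham in replicates 2 and 3, and by less in replicate 1. Their mean offset was -0.16 in replicate 1, with single sham arrays between -0.06 and 0.07. Of 19 tested, 0 passed, 17 were lower at an unadjusted p under 0.05 (all genes, 7.35%) and 8 kept the groups apart (all genes, 5.8%), with a median of -0.82. Col3a1, a fibrillar collagen chain, read 7.32, 6.47 and 5.75 in iron day 1, against 7.94, 7.50 and 7.95 in sham (-1.29, SE 0.299, adjusted p = 0.255). Lum, a proteoglycan that binds collagen fibrils, read 6.83, 5.91 and 5.53, against 7.10, 7.21 and 7.43 in sham (-1.16, SE 0.255, adjusted p = 0.255). Pi16, a marker of adventitial fibroblasts, read 7.50, 6.41 and 6.39 in iron day 1, against 7.38, 7.43 and 7.33 in sham, so that replicate 1 was above every sham array. That held for 2 of the 19 markers (all genes, 26.9%), while replicate 1 was below every sham array in 8 (all genes, 18.3%). Without replicate 1, 16 of the 19 passed (background 3.49%), and the median was -1.24. The summed signal of the 22 markers on the array was 7891, 4477 and 3916 in iron day 1, against 8601, 8525 and 8931 in sham.

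Genes of the matrix, some of which are also fibroblast markers, lay below sham. All 13 collagen chains tested were below 0 (41.6% of all genes tested were), 9 of them at an unadjusted p under 0.05 (all genes lower, 7.35%) and 0 past the adjusted threshold, with a median of -0.66. Col1a2 stood at -0.70 (SE 0.172). Among chains that assemble together, Col6a3 stood at -0.66 (SE 0.154) and Col6a2 at -0.50 (SE 0.119), and the basement membrane chains Col4a1 and Col4a2 at -0.27 and -0.08. All 23 matrix proteoglycans and glycoproteins tested were below 0, 17 at an unadjusted p under 0.05, with a median of -0.57. Fbln2, an elastic fibre protein, read 7.30, 6.59 and 6.24 in iron day 1, against 7.58, 7.45 and 7.57 in sham (-0.82, SE 0.197, adjusted p = 0.255). Without replicate 1, 9 of 13 collagens and 13 of 23 matrix genes passed, against 3.49% of all genes.

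Endothelial markers divided the iron day 1 arrays, with replicate 1 near sham. Of 20 tested, 7 were lower at an unadjusted p under 0.05 (7.35% of all genes) and 0 passed, with a median of -0.50. Vwf, the von Willebrand factor that endothelium stores, was the one marker that kept the groups apart, at 7.70, 7.12 and 6.90 in iron day 1, against 8.07, 8.03 and 8.14 in sham (-0.84, SE 0.2, adjusted p = 0.255). Emcn, a sialomucin of capillaries and veins, read 9.49, 8.33 and 8.51, against 9.71, 9.51 and 9.32 in sham. Replicate 1 was above every sham array in 8 of the 20 markers (all genes, 26.9%) and below in 1 (all genes, 18.3%). Replicate 2 was below in 18 (all genes, 31%) and replicate 3 in 17 (all genes, 25.5%). The summed signal of the 21 markers on the array was 6383, 3003 and 3035 in iron day 1, against 6448, 5127 and 5063 in sham. Without replicate 1 the median was -0.86 and 10 of 20 passed, against 3.49% of all genes.

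Leaving out replicate 1 of iron day 1 changed how many genes passed more than any other setting run. That array was left out for its likeness to sham, so more calls and larger differences follow in part from the choice. Without it 348 genes were lower (3.49%) and 15 higher (0.15%) at an adjusted p under 0.05 in limma, against 6 and 0 with all arrays, and all 6 genes named above were among the 348. H2-Aa then stood at -1.72 (adjusted p = 0.00367), Cd74 at -1.71 (adjusted p = 0.00605), Igf2 at -1.38 (adjusted p = 0.00392) and F630028O10Rik at -1.14 (adjusted p = 0.0018). Among the genes that passed in that fit without overlap, the 8 largest falls were those of Ube2c, a ubiquitin enzyme of mitosis (-1.83), Dynll1, a dynein light chain (-1.81), H2-Aa, Cd74, Col3a1 (-1.69), Cd55, a complement regulator (-1.57), H2-Ab1 (-1.55) and Lum (-1.53). Of the macrophage markers 16 of 20 then passed (all genes, 3.49%). Against the sham day 1 arrays alone, 195 genes (1.96%) were lower and 3 (0.0301%) higher without replicate 1, and 0 in either direction with it, where limma gave 470 lower (4.71%) and 165 higher (1.66%) at an unadjusted p under 0.05.

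**Figure D4:**
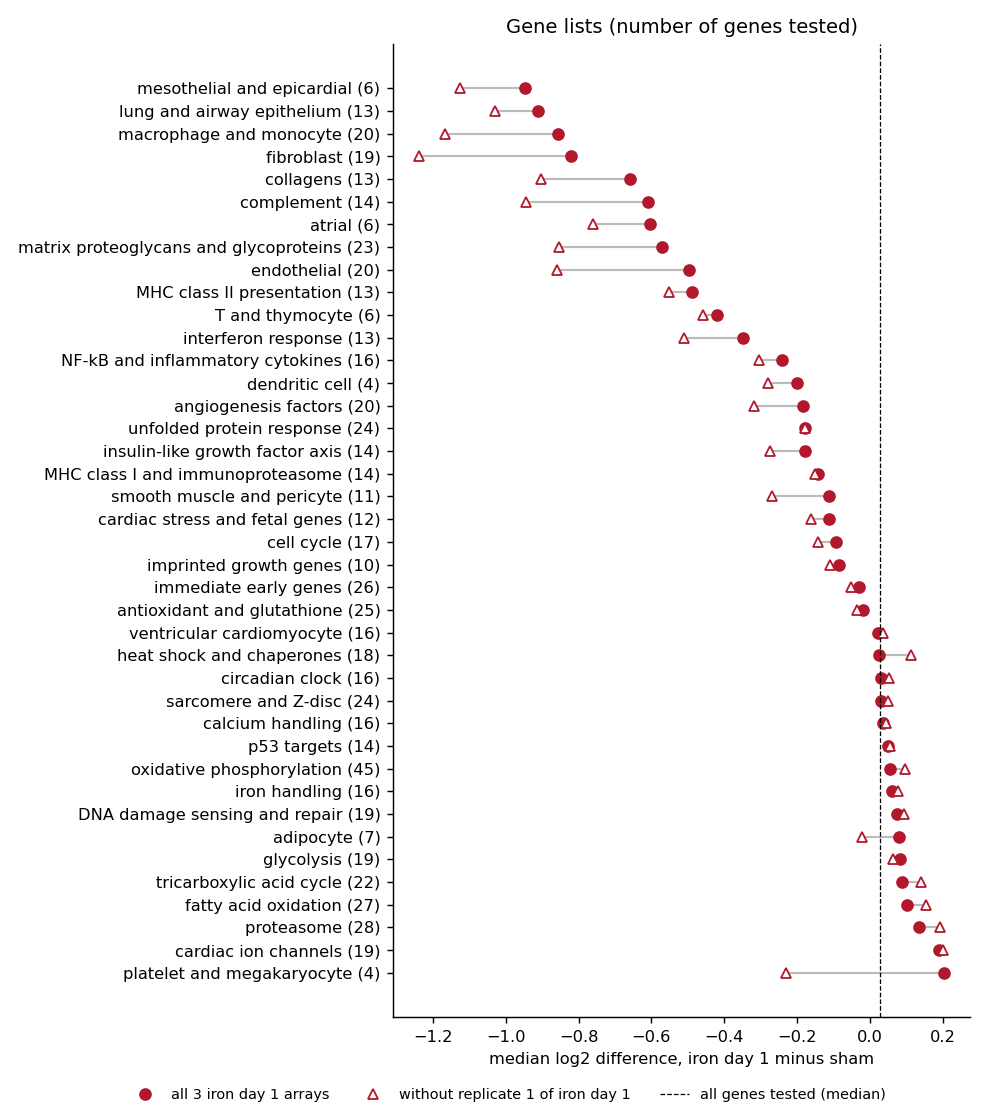
Median log2 difference (iron day 1 minus sham) of each list with at least 4 tested genes, over all 3 iron day 1 arrays (filled circles) and without replicate 1 (open triangles), with the median of all genes tested as a dashed line. Fibroblast markers stand at -0.82 and -1.24, macrophage markers at -0.86 and -1.17, and lists of cardiomyocyte function lie near the dashed line.

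Complement and interferon genes gave no gene that passed. Of 14 complement genes tested 9 were lower at an unadjusted p under 0.05 (7.35% of all genes) and 0 passed, with a median of -0.61. C2, a protease of the classical pathway, read 5.01, 4.91 and 4.54 in iron day 1, against 5.43, 5.09 and 5.84 in sham (-0.63, SE 0.192, adjusted p = 0.288), while the membrane inhibitor Cd59a stood at 0.07. Of 13 interferon response genes 5 were lower at an unadjusted p under 0.05 (again 7.35% of all genes) and 0 passed, with a median of -0.35. Oasl2, an interferon-induced oligoadenylate synthetase relative, read 7.33, 6.75 and 6.34 in iron day 1, against 7.65, 7.42 and 8.20 in sham (-0.95, SE 0.25, adjusted p = 0.276). Irf9, part of the factor that transmits type I interferon signals, stood at -0.30 (SE 0.108, adjusted p = 0.332). Macrophage markers, whose offsets are given above, were lower as well, and their part in the values of both lists was not tested. C1qa, C1qb and C1qc belong to both the complement and the macrophage list, so those lists share genes.

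In the insulin-like growth factor axis Igf2 was the 1 gene that passed. Of 14 tested, 7 were lower at an unadjusted p under 0.05 (7.35% of all genes) and 4 kept the groups apart (5.8% of all genes), with a median of -0.18. Igf1, the second ligand, read 7.20, 6.17 and 5.82 in iron day 1, against 7.73, 7.35 and 7.26 in sham (-1.05, SE 0.294, adjusted p = 0.283). Igfbp4, a secreted binding protein that holds the ligands, read 7.43, 6.62 and 6.33, against 7.90, 7.70 and 8.11 in sham (-1.11, SE 0.267, adjusted p = 0.255), and Igfbp6, which prefers Igf2, stood at -0.83 (SE 0.245, adjusted p = 0.284). The signalling receptor Igf1r stood at -0.28 (SE 0.121, adjusted p = 0.407) and the clearance receptor Igf2r at -0.04 (SE 0.094). Without replicate 1, Igf2, Igf1, Igfbp4 and Igfbp7 passed. Of 10 imprinted growth genes tested, Igf2 among them, 7 were below 0 (41.6% of all genes) and 3 above. They ran from -1.22 to 0.47, with a median of -0.086 (all genes, 0.028). Plagl1, a zinc finger factor of the imprinted gene network in mice, read 5.99, 5.90 and 5.90 in iron day 1, against 6.51, 6.57 and 6.29 in sham (-0.53, SE 0.11, adjusted p = 0.255). Its groups did not overlap.

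Genes switched on by p53 after DNA damage lay near sham. Of 14 tested, 0 passed, 1 was higher (3.68% of all genes) and 0 lower (7.35% of all genes) at an unadjusted p under 0.05, and the median was 0.05. Rrm2b, a ribonucleotide reductase subunit that p53 induces, read 5.86, 5.91 and 6.00 in iron day 1, against 5.56, 5.62 and 5.45 in sham, and the groups did not overlap (0.38, SE 0.115, adjusted p = 0.288). Mdm2, the ubiquitin ligase that feeds back on p53, read 8.29, 8.41 and 8.32, against 8.46, 8.22 and 8.22 in sham, and Ccng1, another target, read 11.88, 11.88 and 11.82, against 11.78, 11.89 and 11.76. Both of the last genes overlapped between groups. Of 19 genes of damage sensing and repair, 1 was lower (all genes, 7.35%) and 1 higher (all genes, 3.68%) at an unadjusted p under 0.05 and 0 passed. They were Prkdc, the catalytic subunit of DNA-dependent protein kinase (0.22, SE 0.0974), and H2ax, the histone marked at breaks (-0.57, SE 0.224), whose highest value was in the sham day 3 array.

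Stress genes divided the iron day 1 arrays. Of 18 heat shock and chaperone genes 0 passed and 0 had an unadjusted p under 0.05 in either direction in limma, with a median of 0.02. Hspa1a, the inducible Hsp70 gene, read 8.34, 10.16 and 10.60 in iron day 1, against 9.58, 9.47 and 9.57 in sham. Dnajb1, its cochaperone, read 7.16, 8.88 and 9.43, against 7.84, 8.00 and 8.17 in sham. In both genes, which had the widest ranges of the list, replicate 1 lay below every sham array and replicates 2 and 3 above. Replicate 1 was below every sham array in 13 of the 18 (18.3% of all genes), and replicate 3 was above in 9 (39.3% of all genes). Without replicate 1 the median was 0.11, 5 were higher at an unadjusted p under 0.05 (background 7.15%), and Hspd1, the mitochondrial Hsp60, passed (0.33, adjusted p = 0.0403). The immediate early factor Atf3 had the same order, with 7.75, 9.18 and 9.49 in iron day 1, against 8.87, 7.97 and 8.54 in sham (0.35, SE 0.439, adjusted p = 0.779). Of 26 immediate early genes 0 passed, 1 was lower (all genes, 7.35%) and 0 higher (all genes, 3.68%) at an unadjusted p under 0.05.

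Genes of cardiomyocyte energy supply had medians slightly above 0. Of 27 fatty acid oxidation genes 25 were above 0 (58.4% of all genes were), 3 of them at an unadjusted p under 0.05 (3.68% of all genes), and 0 passed, with a median of 0.10. Etfdh, which hands electrons from fatty acid oxidation to the respiratory chain, read 10.79, 10.98 and 10.87 in iron day 1, against 10.61, 10.74 and 10.62 in sham (0.22, SE 0.0742, adjusted p = 0.304). Slc25a20, the carnitine carrier of the inner membrane, read 9.16, 9.28 and 9.43, against 8.93, 9.08 and 8.96 in sham (0.30, SE 0.116, adjusted p = 0.361). Both genes kept the groups apart by less than 0.1 log2 units. Of 22 tricarboxylic acid cycle genes 21 were above 0 and of 45 oxidative phosphorylation genes 40 were, with medians of 0.09 and 0.06 and 0 past the threshold. Against the sham day 1 arrays alone 28 of the 45 oxidative phosphorylation genes were above 0 (54% of all genes), with a median of 0.016 (all genes, 0.012). Replicate 1 was above every sham array in 3 of these 45 (all genes, 26.9%) and below in 13 (all genes, 18.3%). Of the 22 tricarboxylic acid cycle genes, replicate 1 was above in 4 and below in 9, while replicates 2 and 3 were above in 15 and 21. Among 28 proteasome subunits the median was 0.13, and 0.087 against sham day 1. Replicate 1 was above every sham array in 3 of them and below in 12 (42.9%), while replicate 2 was above in 19 (all genes, 30%) and replicate 3 in 23 (all genes, 39.3%).

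Ion channel and contractile genes gave no gene that passed. Of 19 cardiac ion channel genes, 2 were higher at an unadjusted p under 0.05 (3.68% of all genes), with a median of 0.19, and of 0.097 against the sham day 1 arrays. Kcnj12, a subunit of the inward rectifier current that sets the resting potential, read 6.47, 6.65 and 6.70 in iron day 1, against 6.22, 6.29 and 6.31 in sham (0.33, SE 0.121, adjusted p = 0.34). Kcnj2, the main subunit of that current, stood at 0.34 (SE 0.14, adjusted p = 0.391), and replicate 3 at 8.11 lay inside the sham range of 7.87 to 8.15. The 24 sarcomere and Z-disc genes ran from -0.16 to 0.25 with a median of 0.03, and the 16 calcium handling genes from -0.30 to 0.13. Of 16 circadian clock genes 0 passed, and the largest difference was that of Nr1d1, a clock repressor, at 9.39, 8.57 and 8.03 in iron day 1, against 9.37, 9.20 and 8.83 in sham (-0.47, SE 0.269, adjusted p = 0.537). Without replicate 1 it stood at -0.83 (adjusted p = 0.0462).

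On the higher side the smallest p values belonged to genes with no list in common. Amy1, an amylase gene, read 6.10, 6.85 and 6.65 in iron day 1, against 5.90, 5.49 and 5.32 in sham (0.96, SE 0.22, adjusted p = 0.255), and every iron array was above every sham array. Cntn5, a neural adhesion protein gene, read 6.27, 6.44 and 6.12, against 5.60, 5.74 and 5.33 in sham (0.72, SE 0.166, adjusted p = 0.255). Homer1, a scaffold of calcium release complexes, read 8.68, 8.82 and 8.85, against 8.35, 8.54 and 8.51 in sham (0.32, SE 0.0794, adjusted p = 0.262). Mtm1, a phosphoinositide phosphatase needed in skeletal muscle, stood at 0.46 (SE 0.116), and Erfe, a hormone of the iron-regulating axis, at 0.42 (SE 0.116), both with an adjusted p of 0.276. In 757 genes (7.59%) all iron day 1 arrays were above all sham arrays. Without replicate 1 the genes that rose included Amy1 (1.18, adjusted p = 0.0109), Homer1 (0.37, adjusted p = 0.0351) and Erfe (0.53, adjusted p = 0.0284).

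Iron handling genes showed no common direction. Of 16 tested, 3 were lower (7.35% of all genes) and 0 higher at an unadjusted p under 0.05, 0 passed and the median was 0.06. Trf, the transferrin gene, read 8.01, 7.38 and 7.09 in iron day 1, against 8.44, 8.21 and 9.06 in sham (-1.08, SE 0.25, adjusted p = 0.255), and the groups did not overlap. Ncoa4, a receptor for the breakdown of ferritin, stood at -0.37 and Hmox1, the haem-degrading oxygenase, at -0.46, and both overlapped between groups.

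The widest spread among the iron day 1 arrays was in airway and blood genes. The 6 genes with the largest range were Scgb1a1, Scgb3a1, Cyp2f2, Bpifa1 and Reg3g, all known from airway or mucosal epithelium, and the platelet chemokine Ppbp. Scgb1a1, the club cell secretoglobin, read 10.97, 8.94 and 6.53 in iron day 1, against 10.54, 7.80 and 12.37 in sham. Bpifa1 read 10.12, 7.81 and 5.25, against 9.35, 5.64 and 12.06 in sham, in the same order of arrays. Both ranges overlapped, and the adjusted p was 0.637 for Scgb1a1 and 0.746 for Bpifa1. Alas2, the haem synthesis enzyme of red cell precursors, read 10.09, 8.96 and 6.23 in iron day 1, against 8.98, 10.81 and 10.21 in sham. The order of the iron arrays in these genes, replicate 1 highest and replicate 3 lowest, is that of the macrophage and fibroblast markers as well.

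Mesothelial genes, which mark the sheet of cells on the heart's outer surface but are not confined to it, gave no gene that passed. Of 6 tested, 5 were lower at an unadjusted p under 0.05 (7.35% of all genes) and 3 kept the groups apart (5.8%), with a median of -0.95 (-0.63 against the sham day 1 arrays). Lrrn4, a membrane protein of mesothelium, read 7.32, 7.22 and 6.21 in iron day 1, against 8.27, 7.41 and 8.68 in sham (-1.20, SE 0.327, adjusted p = 0.276). Msln, mesothelin, stood at -0.92 (SE 0.267, adjusted p = 0.284). Lung and airway markers had a median of -0.91 against all sham arrays and 0.005 against the sham day 1 arrays, and T cell and thymocyte markers one of -0.42 and 0.025. In the sham arrays the mean offset of the mesothelial list was 0.00, -0.61 and 0.61. That of the lung and airway list was -0.25, -0.89 and 1.15, and the tissue behind the mesothelial signal was not tested. For macrophage, fibroblast and endothelial markers the medians against sham day 1 were -0.82, -0.85 and -0.55.

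Proliferation and inflammation genes gave no call. Of 17 cell cycle genes tested 4 were lower (7.35% of all genes) and 0 higher at an unadjusted p under 0.05, with a median of -0.09. Mki67, a nuclear protein of dividing cells, read 5.53, 4.97 and 4.58 in iron day 1, against 5.74, 5.64 and 7.22 in sham (-1.17, SE 0.368, adjusted p = 0.288), and the sham day 3 array was far above the others. Of 16 genes of NF-kB signalling and cytokines 1 was lower at an unadjusted p under 0.05 (all genes, 7.35%), with a median of -0.24. It was Nfkbiz, a nuclear regulator of that pathway, which stood at -0.56 (SE 0.233, adjusted p = 0.394). Of 25 antioxidant genes 3 were lower (all genes, 7.35%) and 1 higher (all genes, 3.68%) at an unadjusted p under 0.05. Prdx3, the mitochondrial peroxiredoxin, stood at 0.18 (SE 0.0798, adjusted p = 0.417), and Gpx1, a glutathione peroxidase, at -0.72 (SE 0.241, adjusted p = 0.304).

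The genes that passed on day 1 had different levels on the later days, which share the sham arrays with it. H2-Aa averaged 8.18 in sham, 6.57 on iron day 1, 6.72 on day 3, 9.30 on day 7, 8.00 on day 14 and 8.95 on day 28. Igf2 averaged 7.61 in sham and 6.40, 6.48, 6.98, 6.46 and 6.82 on iron days 1, 3, 7, 14 and 28, so each iron day's mean lay below sham. F630028O10Rik averaged 6.23 in sham and 5.24, 4.68, 6.27, 5.55 and 5.52 on the same days. The class II gene was low on days 1 and 3 and above sham on days 7 and 28, and these differences between days were not tested here.

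**Figure D5:**
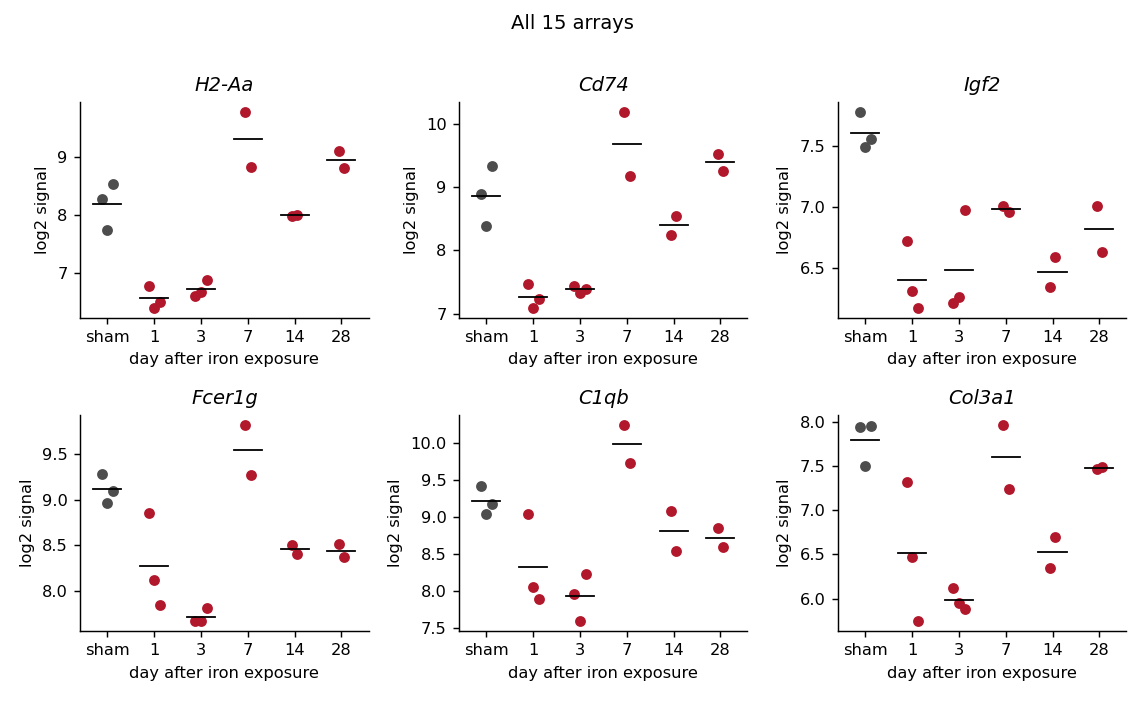
Log2 signal of 6 genes in all 15 arrays by day after iron exposure, with sham at the left, 1 point per array and lines at group means. H2-Aa and Cd74 are low in all arrays of days 1 and 3, the mean of Igf2 is below sham on every day, and Fcer1g, C1qb and Col3a1 show replicate 1 of day 1 nearer to sham than the other day 1 arrays.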

How the data were processed

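The authors deposited log2 signals of 34760 probe sets for 15 arrays, with 0 missing values and array medians of 4.959 to 5.134. Per the submitters' processing notes MAS5 was used, with its version and role in the normalization not given in the sources used here, and the values were used as deposited. A gene was the probe set with 1 symbol (21640 probe sets, 1321 with several and 11799 with none) and the highest mean over 15 arrays, and of 19937 genes the 9969 with a mean of at least 5.5125 were tested.

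The fit was made in limma 3.58.1 (R 4.3.3). All 15 arrays were fitted as 6 group means with an intensity trend, so that the arrays of other days add to the estimate of spread, and iron day 1 minus sham was adjusted by Benjamini and Hochberg's method (threshold 0.05). A fit with 7 group means gave iron day 1 minus sham day 1. The pipeline was tested on simulated data.

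Members, lists (44, with 866 symbols, 796 on the array and 629 tested) and rules were chosen with earlier results of these data known, and lists got counts and medians, not tests. Named were all genes that passed, the 10 smallest p in each direction, all class II members, the 4 smallest p of each other list, without replicate 1 of iron day 1 the 8 largest differences in each direction that passed without overlap, the 4 smallest p in each direction against sham day 1, and the 6 largest ranges among iron day 1 arrays. Other list members stand as examples of their list chosen after their values were seen.

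Replicate numbers 1 and 2 occur in iron day 1 and in sham day 1. Residuals correlated at 0.174 for number 1 and -0.0298 for number 2. The residuals of the 2 sham day 1 arrays mirror each other, so these values cannot decide whether the numbers pair samples. The main fit used no pairing. Alternatives were quantile normalization, median centring, leaving out the filter or raising it (6646 genes), leaving out the trend, weights per array, testing 14377 probe sets in place of genes, blocking on replicate number, fitting just the 6 arrays, using sham day 1 arrays alone and leaving out each array. Sequences are from RefSeq tables of GRCm38.p6. Python 3.11.15 was used with pandas 2.3.3, numpy 2.4.6 and, for plots, matplotlib 3.10.9.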

Additional observations from a re-analysis of the deposited data

How the results depend on the processing

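Under 10 other settings the count of genes lower in iron day 1 than in sham, which was 6, came to 7 with median centring and 6 with the stricter filter. The stricter filter, a mean of at least 6.4368, left F630028O10Rik untested, so its 6 calls were not the same 6 genes. The count was 0 with quantile normalization, without the filter, over all probe sets, in the fit of just the 6 arrays and with sham day 1 arrays alone (unadjusted p under 0.05 in limma for 470 to 1066 genes), 2 without the intensity trend and 69 with array weights. With the replicate block, which leaves out the sham day 3 array because it shares no number, it was 0 (374 lower and 177 higher at an unadjusted p under 0.05). With single arrays left out it ran from 0 to 348, with the arrays named above. The count of higher genes ran from 0 to 15 with single arrays left out, 15 being the value when iron day 1 lost its replicate 1, and was 0 under the 10 other settings (167 to 1001 at an unadjusted p under 0.05 in limma). Against sham day 1 arrays, array weights gave 3 lower genes, and single arrays left out gave 0 to 195 lower (4 without either array of iron day 7) and 0 to 3 higher. The causes were not tested. None of the 6 genes that passed changed sign in any setting in which it was tested. H2-Aa ranged from -1.83 to -1.44 over 25 settings, with adjusted p from 0.00367 to 0.374, and did not pass in 17. Cd74 ranged from -1.85 to -1.37 and Igf2 from -1.38 to -1.10. Precision is limited by how few arrays each group has.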
